A study of Homo sapiens with 12 samples.

Results

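This report follows 9 target genes of the tumour suppressor p53 in Huh7 cells: MDM2, CDKN1A, GDF15, SESN1, SESN2, RRM2B, FAS, TP53I3 and GADD45A. They were taken by symbol from the table of the Huh7 comparison, where each matched 1 of the 60666 listed genes, and 8 of the 9 were among the 14394 genes tested. The transcript of p53 itself is not reported here. Huh7 is an established human hepatocellular carcinoma line. RNA was sequenced from cells carrying a lentiviral control construct (3 libraries) and from cells carrying a lentiviral shFAM111B construct, a short hairpin RNA against FAM111B (3 libraries). Per the study's methods such cells were selected as stable lines, so the libraries of a group may share 1 transduced population. The labels do not say whether the 3 libraries of a group came from separate cultures, so p-values measure only the spread between these samples, which may be technical. The Hep3B libraries were not analysed here.

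p53 is a transcription factor that is held at a low level by MDM2, a ubiquitin ligase that marks it for degradation, and MDM2 is itself a p53 target, which closes a feedback loop. After DNA damage or other stress, p53 accumulates and switches on its target genes. Some halt the cell cycle (CDKN1A, which encodes p21, and GADD45A) or supply nucleotides for repair (RRM2B). Others handle oxidants and restrain mTORC1 signalling (SESN1, SESN2), are linked to reactive oxygen species (TP53I3) or open the way to cell death (FAS). GDF15 is a secreted stress cytokine that p53 and other stress factors induce. Huh7 cells are known to carry a mutant p53, so the levels of these transcripts are given here as levels and not as a measure of p53 activity.

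p53 binds DNA at response elements made of 2 adjacent half-sites of 10 bases each. Promoter windows of 300 bases (250 before and 50 after an annotated start, from RefSeq on GRCh38.p14) were held for 7 of the 9 genes, all but RRM2B and GADD45A. The p53 half-site pair was searched on both strands with no spacer, with the central C and G of each site kept and at most 3 other mismatches, a rule chosen after the sequences of these genes were seen. A match was found in 5 of the 14 windows, which overlap in part, and in 4 of the 7 genes. Of the 35116 windows of all genes, 1.12% held a match, which is no test of the targets, since the rule was chosen on their sequences. The matches are printed because they show which genes carry p53-like letters next to a start. Capitals mark the 20 bases of the match and lower case up to 5 bases on either side, on the strand of the gene.
MDM2 (chr12:68808918-68808947, + strand, 2 mismatches): gagctGGTCAAGTTCAGACACGTTCcgaaa
FAS (chr10:88991304-88991333, + strand, 2 mismatches): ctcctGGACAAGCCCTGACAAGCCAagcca
SESN1 (chr6:109009013-109009042, - strand, 3 mismatches): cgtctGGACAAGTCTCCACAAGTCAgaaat
GDF15 (chr19:18386181-18386207, + strand, 3 mismatches): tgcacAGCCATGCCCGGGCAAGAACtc

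The MDM2 match began 94 bases before a start and the SESN1 match 49 bases before a start, and both lay inside the gene and in no annotated exon. The FAS match began 122 bases before a start, within an exon of at least 1 annotated transcript. The GDF15 match began 28 bases after the start, in an exon. With at most 2 mismatches, as in MDM2 and FAS, 0.285% of all windows held a match. No match was found in the windows of CDKN1A, SESN2 or TP53I3, which says only that these letters are not in those windows. The 4 genes with a match did not share a direction of change. GDF15 fell, MDM2 and SESN1 did not pass the test, and FAS was too low to test.

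The values are TPM (relative transcript abundances), a measure that takes the length of each gene into account and is relative to the library, so that levels can be compared between genes. They hold no sequencing depth, and a change of some genes shifts the values of all others. Groups were compared on log2(TPM + 1) with limma across all 14394 genes that reached 1 TPM in 3 or more libraries, with Benjamini-Hochberg adjustment over these genes. A gene is said to have fallen or risen where its adjusted p was under 0.05, and is called where the fold change was at least 2 and the unadjusted P under 0.05. With a pseudocount of 1, changes of weakly expressed genes come out too small. The median tested gene was lower by 0.36 on the log2 scale in shFAM111B cells, so differences relative to that gene are given as well. All 6 libraries carried the 10 hepatocyte markers, at 27950 to 28520 TPM in all in control and 41570 to 46540 TPM in shFAM111B libraries. The higher sum came mainly from AFP and APOA1. At an adjusted p under 0.05, 6 of the 10 markers, ALB and HNF4A among them, were lower and 4 were higher, and their median was -0.42 on the log2 scale. Over all tested genes 50.9% were lower and 21.1% higher at that threshold. Of 8 immune, endothelial and fibroblast markers, 5 stayed at or under 1 TPM in every library. Their sum was 18.1 to 22 TPM in control and 25.7 to 27.3 TPM in shFAM111B libraries, and most of it was CD68. In such bulk samples, fewer cells of a type and less RNA per cell cannot be told apart. Transcripts of the mitochondrial chromosome took 196140 to 201464 TPM of each control library and 73237 to 78883 TPM of each shFAM111B library. The targeted gene, FAM111B, had 12.2% of its control level (8.04 ± 0.229 TPM against 0.977 ± 0.146 TPM, SD, n = 3 each).

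With the TPM as deposited, GADD45A, RRM2B, GDF15, TP53I3 and SESN2 of the 8 tested targets fell in shFAM111B cells. MDM2, CDKN1A and SESN1 did not pass the test and none rose. Under 4 of the 5 other scalings, MDM2 and CDKN1A were higher at an adjusted p under 0.05 in limma. The counts below are for the TPM as deposited. GADD45A, RRM2B and GDF15 were called, with 2.51 to 3.27 times less TPM than in control cells. The 2-fold call was made lower in 3 of the 8 genes, against 23.7% of all tested genes, and higher in 0 of 8, against 6.82%. At an adjusted p under 0.05 in limma, 5 of 8 were lower, against 50.9% of all tested genes, and 0 were higher, against 21.1%. No target was higher at an unadjusted p under 0.05 as deposited either. In 5 of 8 the libraries of the groups did not overlap and shFAM111B was lower, which held for 52.8% of all tested genes. The median log2 fold change of the 8 genes was -0.72. Each of these counts lay within 2 genes of what the share of the whole table gives for 8 genes.

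**Figure D1:**
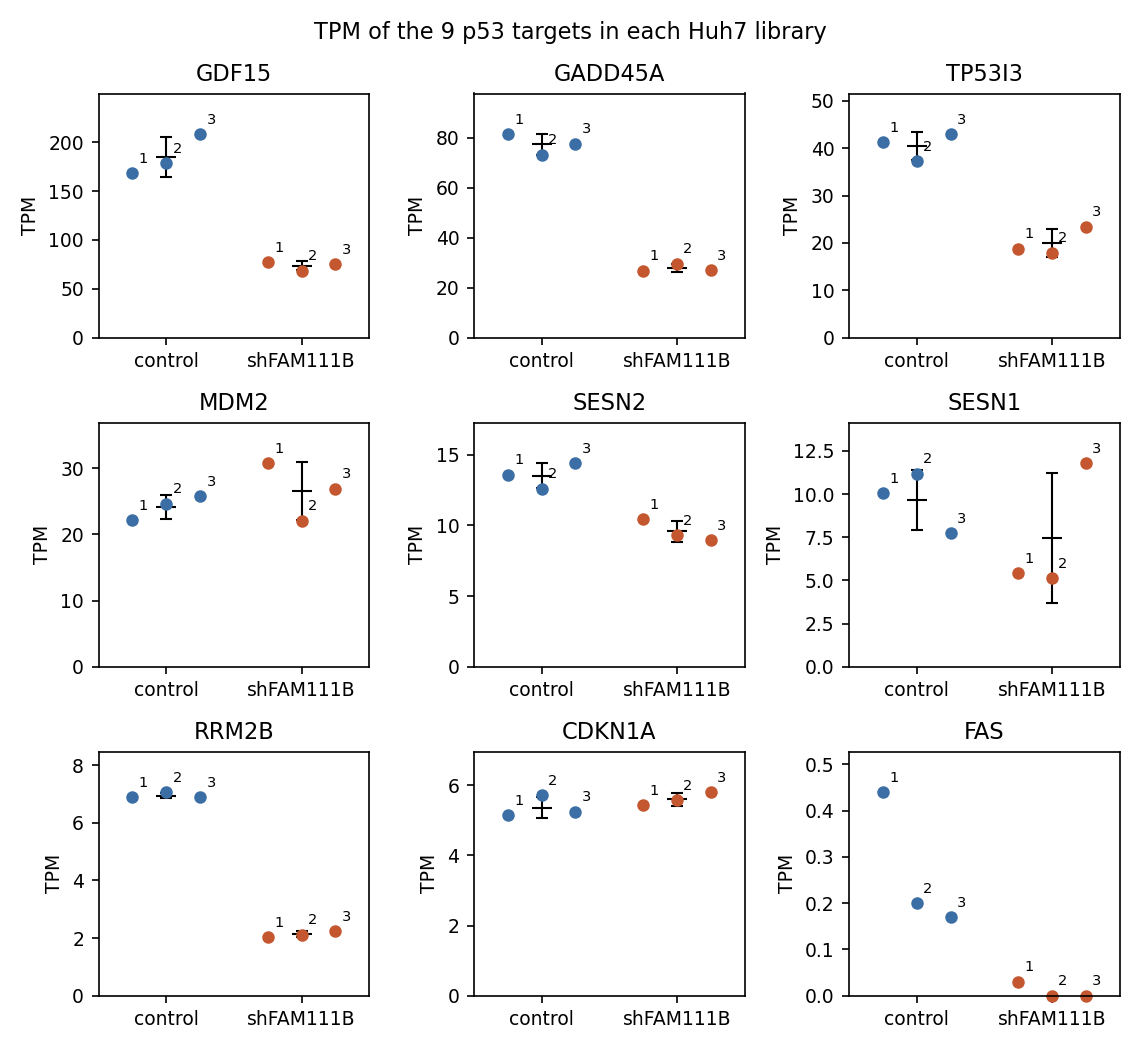
TPM (vertical axis, from 0) of each of the 9 p53 targets in the 3 control and 3 shFAM111B Huh7 libraries, with the replicate number beside each point and bars for the mean ± SD (none for FAS, which is listed at 0 in 2 libraries). The groups lie apart for GDF15, GADD45A, TP53I3, SESN2 and RRM2B and overlap for MDM2, SESN1 and CDKN1A, and FAS stays under 0.5 TPM.

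MDM2 (ENSG00000135679, chr12:68808176-68850686, + strand), the ligase of the feedback loop, did not pass the test. The control libraries (replicates 1 to 3) had 22.2, 24.7 and 25.7 TPM and the shFAM111B libraries 30.8, 22.1 and 26.9 TPM. The ranges of the groups overlapped, and shFAM111B replicate 2 was the lowest of all 6 libraries while replicate 1 was the highest. The log2 fold change was 0.12 (95% interval -0.18 to 0.42, adjusted p = 0.412 in limma). Relative to the median tested gene MDM2 was higher by 0.48 on the log2 scale. Under 4 of the 5 other scalings its log2 fold change was 0.52 to 0.65, with adjusted p from 0.00279 to 0.00807 in limma. Scaling to the sum of protein-coding nuclear genes gave -0.001. Its longest annotated transcript has 12633 nt, and genes of that length and expression were lower in shFAM111B cells, with a fitted log2 fold change of -0.98. With that trend removed the log2 fold change of MDM2 was 1.10 (adjusted p = 0.000219), and MDM2 was then the 1 target called higher. The trend uses the longest annotated transcript, although shorter ones may be the ones present.

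The MDM2 locus overlaps other transcribed genes, and the setting for strand in the counting is not given in the sources used here. CPM, which encodes carboxypeptidase M and lies on the opposite strand, went from 19.9 to 5.17 TPM (group means). A same-strand pseudogene inside the locus, AC025423.2, went from 20.9 to 1.80 TPM. Both were lower in shFAM111B cells while MDM2 was not, and how far reads were split between them and MDM2 was not tested.

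MDM4, the partner of MDM2 that blocks p53 without degrading it, fell. It had 3.66, 4.18 and 4.66 TPM in control libraries and 1.15, 1.71 and 1.67 TPM in shFAM111B libraries, with no overlap. The log2 fold change of MDM4 was -1.04 (SE 0.149, adjusted p = 0.00057 in limma), and it was -0.13 (adjusted p = 0.471) with the length trend removed. A ratio of 2 genes within a library does not depend on how the library was scaled, apart from the pseudocount. The log2 ratio of MDM2 to MDM4 was 2.31, 2.31 and 2.24 in control replicates 1 to 3 and 3.88, 3.09 and 3.39 in shFAM111B replicates 1 to 3. All shFAM111B libraries lay above all control libraries, and the means differed by 1.17 (exact permutation test, two-sided, p = 0.1, the smallest p that 3 against 3 libraries allow). It was 1.54 with a pseudocount of 0.1.

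CDKN1A (ENSG00000124762, chr6:36676460-36687339, + strand) encodes p21, the inhibitor of cyclin-dependent kinases through which p53 halts the cell cycle. It was among the steadiest of the 9 genes, at 5.14, 5.71 and 5.24 TPM in the control libraries and 5.43, 5.57 and 5.80 TPM in the shFAM111B libraries, replicates 1 to 3. The groups overlapped, with means of 5.36 ± 0.304 and 5.60 ± 0.187 TPM (SD, n = 3 each). The log2 fold change was 0.05 (95% interval -0.17 to 0.28, adjusted p = 0.633 in limma), an interval that leaves out a 2-fold change in either direction. Relative to the median tested gene CDKN1A was higher by 0.41 on the log2 scale. Of the 5 other scalings of the libraries, 4 gave a log2 fold change of 0.40 to 0.59 with adjusted p from 0.00138 to 0.00753, and scaling to the sum of protein-coding nuclear genes turned it to -0.05.

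Compared with its relative CDKN1B, which encodes the inhibitor p27, CDKN1A was higher in shFAM111B cells. CDKN1B fell by 0.67 on the log2 scale (SE 0.072, adjusted p = 0.000132 in limma), from 33.7, 30.9 and 32.2 TPM to 20.4, 20.8 and 18.4 TPM. The log2 ratio of CDKN1A to CDKN1B had a mean of -2.39 in control and -1.66 in shFAM111B libraries, a difference of 0.73, with all shFAM111B libraries above all control libraries (exact permutation test, two-sided, p = 0.1). CDKN1A stayed the rarer transcript of the pair in every library. Another relative, CDKN1C, went the other way from CDKN1B. CDKN1C rose from 1.05, 1.10 and 1.31 TPM to 4.06, 3.35 and 3.34 TPM (log2 fold change 1.09, adjusted p = 0.000241 in limma). The ratio of CDKN1A to CDKN1C was not tested. The genes whose 6 values lay nearest those of CDKN1A, by root mean square distance of log2 differences from the control mean over the 6 libraries among 7051 protein-coding genes with at least 10 TPM, were SPATA2L (0.0268), HNRNPA3 (0.027), DUS2 (0.0296), GGPS1 (0.0312) and CDC20 (0.0317). Their levels hardly moved, which follows from the choice, since the level of CDKN1A as deposited hardly moved. CDC20, an activator of the anaphase-promoting complex, had 149 to 154 TPM in control and 154 to 163 TPM in shFAM111B libraries.

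GADD45A (ENSG00000116717, chr1:67685061-67688338, + strand), a small protein that binds PCNA and stress kinases and takes part in the arrest before mitosis, had the largest fall of the tested targets on the log2(TPM + 1) scale as deposited. RRM2B was lower with a pseudocount of 0.1 (-1.66 against -1.48), and GDF15 under quantile normalization (-1.31 against -1.17) and with the length trend removed. Its level was 81.4, 73.1 and 77.6 TPM in the control libraries, replicates 1 to 3, and 26.7, 29.6 and 26.9 TPM in the shFAM111B libraries. The control and shFAM111B libraries lay far apart. The mean was 35.9% of that in control cells, and the log2 fold change was -1.45 (SE 0.0672, adjusted p = 4.46e-06 in limma). Only 11.0% of tested genes were as low or lower. Genes of the length (1496 nt) and expression of GADD45A tended to be higher in shFAM111B cells, with a fitted value of 0.17. With the trend removed the log2 fold change of GADD45A was -1.62.

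GADD45B, the paralog known for its response to NF-kB and TGF-beta, fell as well. It went from 88.0, 78.0 and 87.3 TPM to 36.2, 38.6 and 40.0 TPM, a log2 fold change of -1.12 (SE 0.0691, adjusted p = 1.13e-05 in limma). The log2 ratio of GADD45A to GADD45B was -0.11, -0.09 and -0.17 in control libraries and -0.42, -0.37 and -0.56 in shFAM111B libraries. The groups did not overlap and differed by 0.33 (exact permutation test, two-sided, p = 0.1), with GADD45A the lower of the pair. The paralog GADD45G lay at 3.53 to 4.59 TPM in control and 5.58 to 8.45 TPM in shFAM111B libraries.

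GDF15 (ENSG00000130513, chr19:18374731-18389176, + strand), the secreted cytokine, was the most abundant of the 9 transcripts in both groups. Across replicates 1 to 3, the control level was 168, 179 and 208 TPM and the shFAM111B level 77.1, 68.4 and 75.4 TPM. Every control library lay above every shFAM111B library, and the groups did not overlap. The mean fell to 39.8% of control, with a log2 fold change of -1.31 (SE 0.0893, adjusted p = 1.66e-05 in limma). GDF15 had the shortest transcript of the 8 tested targets (1200 nt), and genes of that length and expression were higher by 0.42. With the trend removed the fall was the largest of the 8, at -1.73. Its promoter window also held the letters TATAAA on 1 of the strands, as did 11.5% of all windows.

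GDF15 is also induced by ATF4 and DDIT3 (CHOP), the factors of the integrated stress response, and those genes gave mixed values. DDIT3 rose from 18.8, 19.7 and 18.3 TPM to 76.5, 67.3 and 81.5 TPM, a log2 fold change of 1.93 (SE 0.0815, adjusted p = 3.56e-06 in limma). SLC7A11, the cystine transporter that ATF4 induces, fell from 13.95, 12.4 and 11.9 TPM to 1.76, 2.61 and 1.96 TPM, a log2 fold change of -2.15. Of 17 genes of the ATF4 list, all tested, 11 fell and 3 rose, against 50.9% and 21.1% of all tested genes. The other 3 did not pass the adjusted test. The median log2 fold change of the list was -0.37, close to that of all tested genes. GDF15, at -1.31, lay below that median, and DDIT3 had the highest value of the list.

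RRM2B (ENSG00000048392) encodes p53R2, the small subunit of ribonucleotide reductase that makes deoxynucleotides outside S phase and for mitochondrial DNA. The control libraries (replicates 1 to 3) had 6.89, 7.06 and 6.88 TPM and the shFAM111B libraries 2.02, 2.12 and 2.23 TPM. The libraries of each group were close together, and the groups were far apart. In control libraries 97.0% of tested genes had at least as large a spread. The mean fell to 30.6% of control, and the log2 fold change was -1.35 (SE 0.0995, adjusted p = 2.35e-05 in limma). In ratio of TPM this was the largest fall of the 8, by 3.27-fold, and the smaller log2 value reflects the pseudocount at these low levels. Genes of its length (4931 nt) and expression were lower by 0.65, and -0.70 was left with that trend removed.

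RRM2, the S-phase counterpart of RRM2B, fell as well, from 124, 112 and 111 TPM to 57.2, 53.6 and 47.0 TPM (log2 fold change -1.13, SE 0.0842, adjusted p = 2.49e-05 in limma). The log2 ratio of RRM2B to RRM2 averaged -3.88 in control and -4.10 in shFAM111B libraries, and the groups overlapped (difference -0.22, exact permutation test, two-sided, p = 0.2). With a pseudocount of 0.1, which weighs on the low RRM2B most, the difference was -0.53 (exact permutation test, two-sided, p = 0.1). RRM1, the large subunit that both partner, had 47.0 to 50.3 TPM in control and 27.7 to 28.8 TPM in shFAM111B libraries.

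TP53I3 (ENSG00000115129, chr2:24077433-24085861, - strand), also called PIG3, encodes a quinone oxidoreductase linked to reactive oxygen species. Its level was 41.2, 37.3 and 42.9 TPM in the control libraries, replicates 1 to 3, and 18.8, 17.9 and 23.5 TPM in the shFAM111B libraries. The groups did not overlap, and shFAM111B replicate 3 was the nearest to control. The mean fell to 49.6% of control, a 2.02-fold difference in TPM. On the log2(TPM + 1) scale the fold change was -0.98 (SE 0.111, adjusted p = 0.000175 in limma), just short of the 2-fold call. Without control replicate 2 it was -1.04, without shFAM111B replicate 3 -1.10, with a pseudocount of 0.1 -1.02 and under protein-coding nuclear scaling -1.11, and TP53I3 was then called. The trend with length and expression hardly touched it (fitted value -0.08, longest transcript 1998 nt). The opposite-strand gene FAM228B, which overlaps it, stayed at 1.13 and 1.11 TPM (group means).

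SESN2 (ENSG00000130766, chr1:28259527-28282491, + strand) and SESN1 (ENSG00000080546, chr6:108986437-109094819, - strand) encode sestrins, which bind the GATOR2 complex to hold back mTORC1 and help to reduce peroxiredoxins. For SESN2, across replicates 1 to 3, the control level was 13.6, 12.6 and 14.4 TPM and the shFAM111B level 10.4, 9.31 and 8.96 TPM. The groups did not overlap, and the mean was 70.8% of that in control cells. With the TPM as deposited SESN2 fell by 0.46 on the log2 scale (SE 0.0927, adjusted p = 0.00332 in limma), but under quantile normalization, median subtraction and removal of the length trend the value was 0.07, 0.07 and 0.05 with adjusted p from 0.494 to 0.635. Relative to the median tested gene SESN2 was lower by 0.10, and genes of its length (3453 nt) and expression had a fitted value of -0.51. Its change was thus close to that of the median gene.

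SESN1 had the largest spread on the log2 scale of the 8 tested targets. The control libraries (replicates 1 to 3) had 10.0, 11.2 and 7.74 TPM and the shFAM111B libraries 5.42, 5.14 and 11.8 TPM. The groups overlapped, since shFAM111B replicate 3 was the highest of all 6 libraries and the other 2 shFAM111B libraries were the lowest. Only 4.62% of tested genes had as large an SD among shFAM111B libraries (0.594 on the log2 scale). The log2 fold change was -0.41 (95% interval -1.10 to 0.29, adjusted p = 0.249 in limma), and without shFAM111B replicate 3 it was -0.75 (adjusted p = 0.00597). The sign turned to 0.11, 0.13 and 0.10 under quantile normalization, median subtraction and removal of the length trend. The next most uneven target among shFAM111B libraries was MDM2, where 24.0% of tested genes had as large an SD. The mitochondrial sum of shFAM111B replicate 3 (73237 TPM) was the lowest of the 6 libraries, and whether that bears on SESN1 was not tested.

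The log2 ratio of SESN2 to SESN1 was 0.40, 0.16 and 0.82 in control libraries and 0.83, 0.75 and -0.36 in shFAM111B libraries. The groups overlapped (difference -0.05, exact permutation test, two-sided, p = 0.9), and the sign turned to 0.13 without control replicate 3 and to 0.33 without shFAM111B replicate 3. Of the 5 GATOR2 subunits, 3 fell and 1 rose, against 50.9% and 21.1% of all tested genes. The other 1 did not pass the adjusted test. MIOS, a subunit of that complex, went from 9.14, 9.58 and 7.38 TPM to 3.47, 3.12 and 3.29 TPM (log2 fold change -1.17, SE 0.122, adjusted p = 0.000116 in limma).

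FAS (ENSG00000026103, chr10:88990582-89015785, + strand), the death receptor that p53 can raise, was close to the floor of the measurement. The control libraries had 0.44, 0.20 and 0.17 TPM and shFAM111B replicate 1 had 0.03 TPM, and it was listed at 0 in shFAM111B replicates 2 and 3. Every control library lay above every shFAM111B library, but no library reached 1 TPM, so FAS was not tested and no fold change is given. FASLG, its ligand, was listed at 0 in all 6 libraries. Downstream of the receptor, CASP8, the caspase that starts the cascade, fell from 21.3, 22.7 and 22.2 TPM to 8.03, 8.05 and 5.12 TPM (log2 fold change -1.54, SE 0.16, adjusted p = 0.000115 in limma). The other tested partners had smaller changes. Of the 6 tested in all, 3 fell and 1 rose, against 50.9% and 21.1% of all tested genes. The other 2 did not pass the adjusted test.

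**Figure D2:**
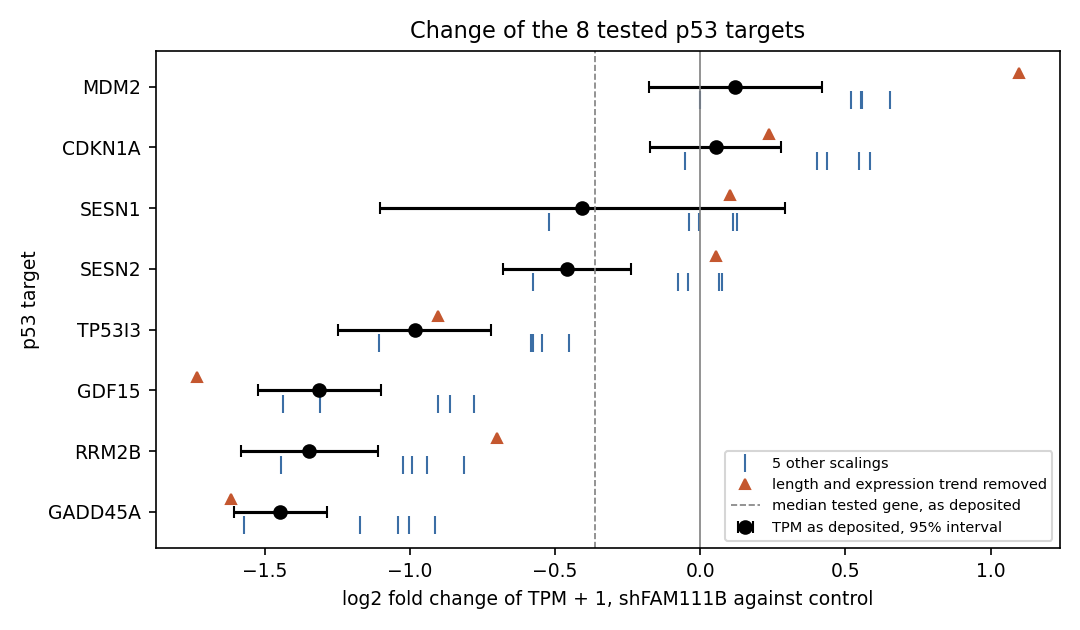
Log2 fold change of TPM + 1 (horizontal axis, shFAM111B against control) of the 8 tested p53 targets, as points with 95% intervals for the TPM as deposited, blue ticks for 5 other scalings and triangles for the fit without the trend with length and expression. GADD45A, RRM2B, GDF15 and TP53I3 lie left of 0 under every setting drawn, and SESN1 and SESN2 lie on either side of it.

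The plot of fold changes with their alternatives divides the 8 genes. GADD45A, RRM2B, GDF15 and TP53I3 kept a negative value and an adjusted p under 0.05 in all 16 alternatives run. Over the 5 other scalings the log2 fold change ranged from -1.57 to -0.91 for GADD45A, from -1.45 to -0.81 for RRM2B, from -1.44 to -0.78 for GDF15 and from -1.11 to -0.45 for TP53I3. MDM2 ranged from -0.001 to 0.65 and CDKN1A from -0.05 to 0.59. Those of SESN1 and SESN2 spanned 0. Relative to the median tested gene, with the TPM as deposited, the log2 difference was -0.99 for RRM2B, -0.95 for GDF15, -0.62 for TP53I3 and -0.04 for SESN1.

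**Figure D3:**
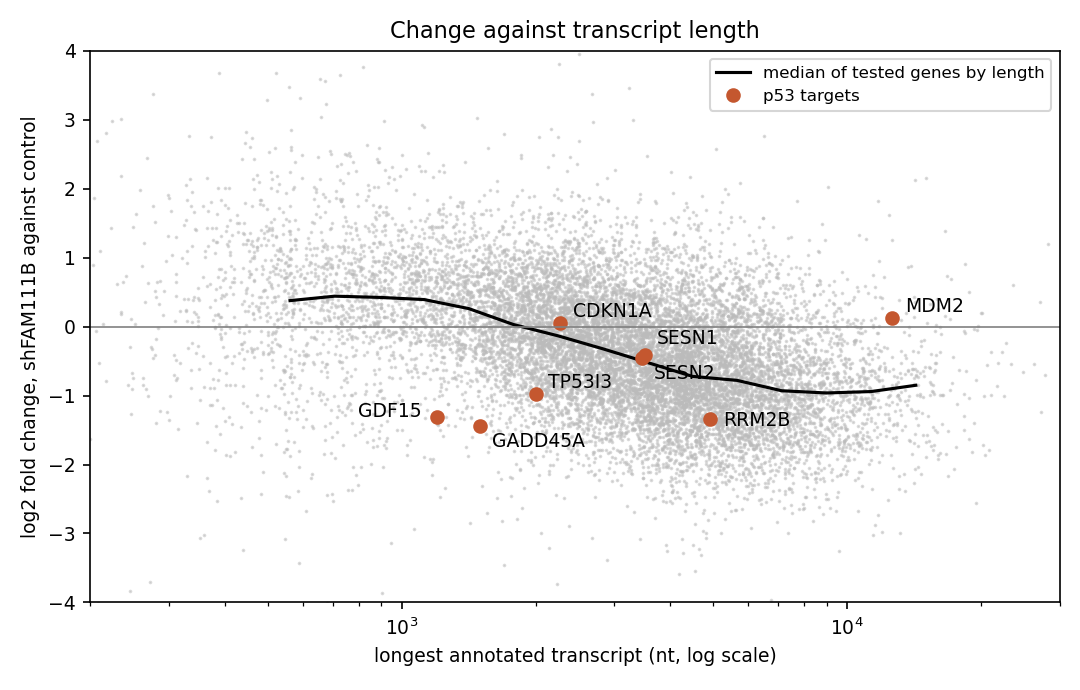
Log2 fold change (vertical axis, shFAM111B against control, drawn from -4 to 4) against the longest annotated transcript (nt, log scale) for the tested genes as grey points, with the median by length as a line and the 8 tested p53 targets in orange. Short genes tended to be higher and long genes lower; GDF15 and GADD45A lie far below the line and MDM2 lies above it.

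The plot of change against transcript length shows where each target stood among genes of its size. GDF15, GADD45A and TP53I3 were low among short transcripts. RRM2B was low in a range where most genes were lower, SESN1 and SESN2 lay on the line, and MDM2 lay above it. What made the change vary with length was not tested.

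The order of the levels also changed. In control libraries it ran GDF15, GADD45A, TP53I3, MDM2, SESN2, SESN1, RRM2B, CDKN1A and FAS, and no library of a gene overlapped those of the next. In shFAM111B libraries MDM2 passed TP53I3 and CDKN1A passed RRM2B. There GADD45A and MDM2, MDM2 and TP53I3, SESN2 and SESN1, and SESN1 and CDKN1A overlapped as neighbours and could not be ranked beyond their spread. The 9 genes together had 349 to 389 TPM in each control library and 160 to 182 TPM in each shFAM111B library, most of it GDF15 and GADD45A.

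Other p53 targets were grouped by role in 5 lists with 53 genes, of which 47 were tested. Of these 26 fell, 10 rose and 11 did not pass the adjusted test, and 17 were called lower and 1 higher, with a median log2 fold change of -0.46. Over all tested genes 50.9% fell, 21.1% rose, 23.7% were called lower and 6.82% higher, so the counts at the adjusted p were near the whole table. The split depended on the scaling, with 10 called lower and 6 higher under median-of-ratios scaling. The median tested gene moved to 0.03 under that scaling, and the shares of all tested genes called there are not given. The shift can therefore not be read as particular to these targets. The cell cycle arrest targets had the lowest median, -1.80 over 7 genes, with 5 fallen, 1 risen and 1 that did not pass. BTG2, an antiproliferative regulator of transcription and mRNA decay, went from 43.2, 42.4 and 42.3 TPM to 6.65, 6.72 and 7.24 TPM (log2 fold change -2.47). PLK2, a stress-induced polo-like kinase, went from 45.4, 45.4 and 48.0 TPM to 8.61, 10.6 and 7.88 TPM (log2 fold change -2.24). Their adjusted p-values in limma were 1.72e-06 and 4.73e-06.

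Of 14 tested apoptosis targets, 10 fell and 2 rose, with a median of -0.92, against 50.9% and 21.1% of all tested genes. TNFRSF10B, the TRAIL death receptor DR5, went from 111, 115 and 109 TPM to 19.6, 20.7 and 20.7 TPM (log2 fold change -2.40, adjusted p = 1.2e-06 in limma). PMAIP1, which encodes the BH3-only protein NOXA, went from 9.77, 9.51 and 9.21 TPM to 1.80, 1.70 and 1.57 TPM (log2 fold change -1.96, adjusted p = 5.77e-06). BAX, the pore-forming effector of the same pathway, rose from 112, 104 and 128 TPM to 216, 211 and 254 TPM (log2 fold change 0.98, adjusted p = 9.99e-05), and was named after its values were seen.

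Of 5 DNA repair targets, 3 fell and 1 rose. Over all tested genes 50.9% fell and 21.1% rose, the shares to set beside the lists that follow as well. XPC, the damage sensor of nucleotide excision repair, fell from 26.7, 25.3 and 24.9 TPM to 9.59, 9.38 and 8.36 TPM (log2 fold change -1.40). Of 10 tested metabolism and autophagy targets, 3 fell and 3 rose. Among them DRAM1, a lysosomal membrane protein of autophagy, had a log2 fold change of -1.35, and SAT1, the rate-limiting enzyme of polyamine breakdown, one of 1.01. Of 11 other tested targets, 5 fell and 3 rose, with CMBL at -2.18. The adjusted p-values of XPC, DRAM1, SAT1 and CMBL lay between 8.35e-06 and 1.16e-05 in limma.

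**Figure D4:**
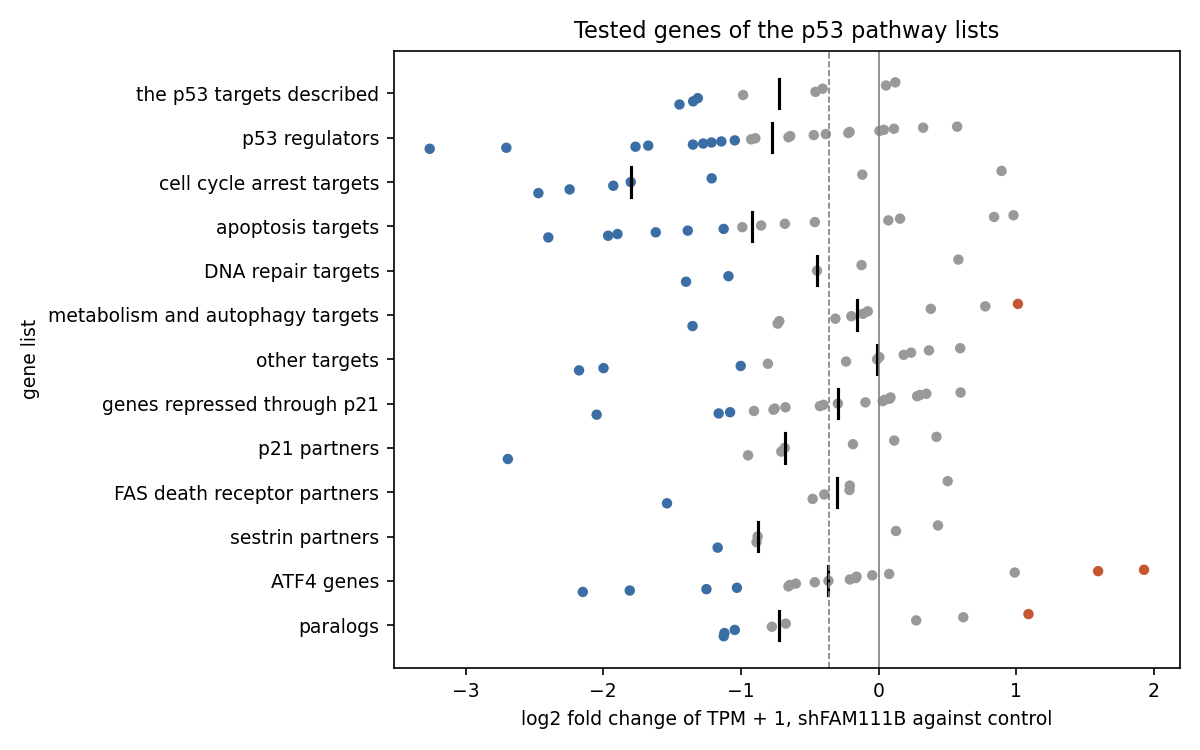
Log2 fold change of TPM + 1 (horizontal axis, shFAM111B against control) of every tested gene of the p53 targets described and of 12 related lists, with 1 point for a gene, a black bar for the list median, blue for genes called lower, orange for genes called higher and grey for the rest. The dashed line is the median of all tested genes (-0.36); the cell cycle arrest targets have the lowest list median, at -1.80.

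Upstream of the targets, 16 of the 22 regulators of p53 fell, 1 rose and 5 did not pass the adjusted test, with 9 called lower and a median log2 fold change of -0.78. Over all tested genes 50.9% fell, 21.1% rose and 23.7% were called lower. The lower calls were 4, 4, 5, 4 and 11 under median-of-ratios, upper-quartile, quantile, median and protein-coding nuclear scaling, and 2 with the length trend removed. The 23.7% is for the TPM as deposited. The shares of all tested genes under these other settings are not given, so the counts cannot be set against the whole table. EP300, the acetyltransferase that is a p53 coactivator, went from 17.5, 17.4 and 22.1 TPM to 1.09, 1.27 and 0.88 TPM (log2 fold change -3.26, SE 0.135, adjusted p = 3.39e-06 in limma). TP53BP2, which encodes ASPP2, a protein that steers p53 to apoptosis genes, went from 55.5, 52.2 and 49.0 TPM to 7.21, 8.32 and 6.11 TPM (log2 fold change -2.70, SE 0.111, adjusted p = 3.31e-06). CDKN2A, whose locus encodes the MDM2 inhibitor ARF, had 110 to 117 TPM in control and 113 to 120 TPM in shFAM111B libraries, and was named after its values were seen. EP300 and TP53BP2 kept their direction and an adjusted p under 0.05 in every alternative run.

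Downstream of p21, 19 genes of the cell cycle that p53 represses through p21 and the DREAM complex were all tested. Of these 10 fell, 4 rose and 5 did not pass the adjusted test, against 50.9% fallen and 21.1% risen over all tested genes. In this list 3 were called lower as deposited, against 23.7% of all tested genes. Under the other scalings 1 to 4 were called lower, and the shares of all tested genes there are not given. The median was -0.30, close to that of all tested genes. MKI67, the proliferation marker, went from 34.7, 36.7 and 32.1 TPM to 7.45, 8.36 and 6.96 TPM (log2 fold change -2.05, adjusted p = 4.06e-06 in limma). Its longest annotated transcript has 12678 nt, and with the length and expression trend removed its log2 fold change was -1.025. FOXM1, a mitotic transcription factor, went from 59.1, 65.5 and 60.3 TPM to 25.2, 27.4 and 28.4 TPM (log2 fold change -1.16, adjusted p = 1e-05). Of 7 tested cyclins and kinases that p21 binds, 4 fell and 1 rose, against 50.9% and 21.1% of all tested genes. CCNE2, a cyclin of S-phase entry, had 9.39, 9.41 and 10.8 TPM in control libraries and 0.66, 1.42 and 0.17 TPM in shFAM111B libraries (log2 fold change -2.69, adjusted p = 7.54e-05 in limma).

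**Figure D5:**
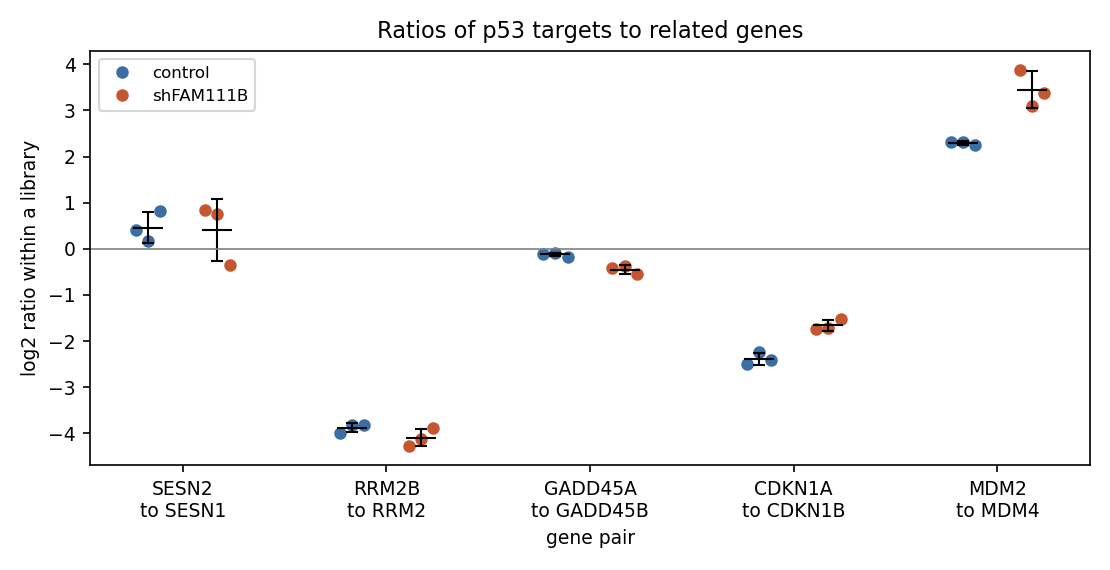
Log2 ratio of TPM + 1 of a p53 target to a related gene within each library (vertical axis), with 3 control and 3 shFAM111B libraries for each of 5 pairs and bars for the mean ± SD. The ratios of MDM2 to MDM4 and of CDKN1A to CDKN1B were higher and that of GADD45A to GADD45B lower in shFAM111B libraries with no overlap, and the other 2 pairs overlapped.

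The plot of ratios sets each target against a relative. In 3 of the 5 pairs the groups did not overlap, and the exact permutation p of each was 0.1, the smallest that this design allows. Among single tested genes, 52.8% were lower in shFAM111B libraries with no overlap. The share over other gene pairs was not computed, so the count cannot be read as particular to these pairs. Since the smallest p is 0.1, no ratio could pass 0.05, whether adjusted over the 5 pairs or not.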

How the data were processed

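RNA from 3 control and 3 shFAM111B Huh7 libraries was prepared with a stranded poly(A) kit per the labels. The authors deposited TPM values per library, and the submitters' processing notes name RSEM, DESeq2 and hg38. The setting for strand and the versions are not given in the sources used here. TPM carry no read numbers, so sequencing depth is unknown here and counting errors cannot be stated. The table also holds group means and the authors' own comparison, deposited as fold changes (ratio and log2) with raw and adjusted p-values, none of which were used.

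Genes that reached 1 TPM in 3 or more libraries (14394) were tested on log2(TPM + 1) with limma 3.58.1 (lmFit, eBayes with trend) in R 4.3.3, without covariates, with Benjamini-Hochberg adjustment. Calls required P under 0.05 and a 2-fold or larger change, the thresholds of the study. The script was tested on simulated data. Ratios within libraries were compared with exact two-sided permutation tests. Positions and lengths came from GENCODE v29 (GRCh38), in which 58420 of 60666 genes (96.3%) had the same identifier. Promoter windows came from RefSeq (GRCh38.p14). Tables and figures used Python 3.11.15, pandas 2.3.3 and scipy 1.17.1.

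The members and lists were chosen with earlier results of these data known. From each other list the text names the 2 called genes with the largest absolute log2 fold change and a mean of at least 5 TPM, as well as the partners in the ratios and the 5 genes nearest to CDKN1A; others are values of a list or are said to be named after their values were seen. CDKN1C, GADD45G, RRM1 and FASLG were also named after their values were seen. The result of 1 gene that this rule names is not reported here, and the gene stays in the counts. Alternatives were no filter, at least 1 TPM in every library, a pseudocount of 0.1, a replicate block, each library left out, 5 scalings (median-of-ratios, upper-quartile, quantile, median subtraction, protein-coding nuclear sum), removal of the length and expression trend (loess, span 0.75, 14263 genes) and adjusted calls.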

Additional observations from a re-analysis of the deposited data

How the results depend on the processing

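The 5 lower p53 targets split by how firmly they held: GADD45A, RRM2B, GDF15 and TP53I3 kept their direction and an adjusted p under 0.05 (limma, Benjamini-Hochberg) in all alternatives run, and SESN2 did not. For MDM2 the log2 fold change passed an adjusted p of 0.05 under median-of-ratios scaling (0.56), upper-quartile scaling (0.52), quantile normalization (0.55), median subtraction (0.65) and removal of the length and expression trend (1.10), and turned to -0.001 under the protein-coding nuclear sum. For CDKN1A the same 4 scalings gave 0.44, 0.40, 0.55 and 0.59, all past the threshold, and the protein-coding nuclear sum -0.054. SESN2 no longer passed the adjusted test under median-of-ratios (-0.041) and upper-quartile scaling (-0.078) and reversed under quantile normalization (0.065), median subtraction (0.074) and trend removal (0.053). SESN1 reversed under the same 3 settings (0.11, 0.13 and 0.10) and passed without shFAM111B replicate 3 (-0.75). With each library left out in turn, SESN1 ranged from -0.75 to -0.22, and the ratio of SESN2 to SESN1 from -0.27 to 0.33, the latter positive without control replicate 3 (0.13) or shFAM111B replicate 3 (0.33). The log2 fold change of the median tested gene was -0.36 as deposited, 0.03 under median-of-ratios, -0.01 under upper-quartile, -0.03 under quantile, 0.17 under median subtraction, -0.47 under the protein-coding nuclear sum and -0.06 with the trend removed.

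Of the 8 tested targets, 1 was called lower under median-of-ratios scaling, 0 under median subtraction and 5 by adjusted p alone, against 3 as deposited. There were 4 with a pseudocount of 0.1, without control replicate 2, without shFAM111B replicate 3 and under the protein-coding nuclear sum and 2 under upper-quartile scaling, quantile normalization and trend removal. With the trend removed, 1 target was called higher. For the 5 lists of other targets (17 lower and 1 higher), the lower calls were 10, 11, 10 and 10 under median-of-ratios, upper-quartile, quantile and median subtraction, 9 with the trend removed and 26 by adjusted p alone, and the higher calls were 6, 5, 4, 7, 4 and 10. The higher calls were also 2 with a pseudocount of 0.1, 0 under the protein-coding nuclear sum, and 0 to 2 with each library left out, with 0 without control replicate 1 or shFAM111B replicate 3. Over all other lists (38 lower and 4 higher), the lower calls under those settings were 19, 20, 23, 19, 19 and 77 and the higher calls 12, 10, 9, 15, 9 and 23. The median tested gene moved between settings as well, from -0.47 to 0.17. The shares of all tested genes called under each setting are not given here, so these shifts cannot be read as particular to the targets. The cause of these differences between settings was not tested.

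With the replicate number as a block, the adjusted p of GADD45A was 0.000144 and that of SESN2 0.0106, and the 2-fold calls were 3 lower and 0 higher targets, as without it. The labels give the groups the same replicate numbers but no shared culture or batch. The deviations of same-numbered libraries correlated at 0.054, 0.0349 and 0.0908, and those of differently numbered libraries at -0.0763 to 0.0442. Correlations this weak cannot decide whether the numbers pair the samples. Without a filter, limma warned that most residual variances were 0, so its p-values are unreliable there. MDM4 and CDKN1B no longer passed with the trend removed (-0.13) and under median subtraction (-0.14). TPM hold no depth, which leaves the counting error of the low genes, FAS above all, unknown.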
